A study of Mus with 12 samples.

Results

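The injured kidneys of mice without Aif1 were compared with the injured kidneys of wild-type mice, gene by gene, in cells pulled out of digested kidney by an antibody to the macrophage surface protein F4/80. The comparison used the 6 libraries labelled as ischemic of the 12 in the series, and all 734 endogenous probes of the 768 counted. The other probes were 20 housekeeping, 6 positive control and 8 negative control probes. Expression had been counted with NanoString probes, fluorescent barcodes read on single RNA molecules. The knockout (KO) group was 3 Aif-1-/- mice, numbered 17, 23 and 32, and the wild-type (WT) group 3 Aif-1+/+ mice, numbered 12, 26 and 36. In all 6 mice the left kidney had been made ischemic for 30 min and was taken at day 4. The right kidney of each mouse, which was not made ischemic, gave the contralateral library set beside the injured one at the end. Each library came from 1 mouse, and no mouse was in both groups, so the comparison was unpaired. The age and sex of the mice, the way the Aif1 allele was made and the purity of the selected cells are unknown here.

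Aif1 encodes a small calcium-binding protein, also known as Iba1, that binds and bundles actin in macrophages and microglia and takes part in membrane ruffling and phagocytosis. In a kidney recovering from ischemia, resident macrophages and monocytes that arrive from blood clear dead tubule cells, release chemokines and interleukin-1, and later turn to a repair state in which arginase, fibronectin and lipid-handling genes are used. The comparison asks whether cells selected from injured kidneys differ in these programs when Aif1 is missing.

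The Aif1 probe gave overlapping raw counts in both genotypes, which were 81, 93 and 64 in the injured kidneys of KO mice 17, 23 and 32, against 74, 95 and 85 in those of WT mice 12, 26 and 36. The groups overlapped, and all 6 values lay above the highest negative control of any injured library, 55, and above the mean negative control of each, 30.3 to 36.3. On the log2 normalised scale KO minus WT was -0.25 (exact two-sided permutation p = 0.6, n = 3 mice per group, where 0.1 is the smallest p possible). Raw Aif1 counts stayed between 64 and 95 while endogenous counts ran from 108790 to 719651. They did not follow the amount of RNA, so the normalised difference depends largely on library size. The counts do not show whether the probe detected Aif1 transcript in either genotype. The part of the transcript that the probe binds is unknown here, so the probe checked neither the deletion nor the labels.

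The 6 libraries differed widely in the amount and kind of RNA within each genotype. Total counts were 882013, 434055 and 255274 in KO mice 17, 23 and 32, and 904220, 295766 and 306329 in WT mice 12, 26 and 36. The geometric mean of the housekeeping probes was 701, 318 and 118 in KO and 901, 176 and 172 in WT libraries. KO mouse 17 and WT mouse 12 thus held the most RNA of their groups, and the 2 genotypes overlapped (exact permutation p = 0.8). All 24 measured macrophage markers, none at 0 in any library, summed to 9.15%, 9.75% and 10.3% of endogenous counts in KO and to 2.98%, 8.62% and 10.6% in WT libraries. A count above 0 is not by itself detection, since the mean negative control was 30.3 to 36.3. The 8 measured kidney epithelial and stromal markers, none at 0, summed to 8.34%, 5.13% and 3.38% in KO and to 13.8%, 4.19% and 2.48% in WT libraries. WT mouse 12 therefore stood apart with the lowest macrophage and the highest kidney share. Its profile had a Spearman correlation of 0.73 and 0.72 with those of WT mice 26 and 36, which correlated at 0.95 with each other, and of 0.91 with that of KO mouse 17. The selection marker Adgre1, which encodes F4/80, had raw counts of 1932, 736 and 292 in KO and 484, 428 and 600 in WT libraries. In such bulk libraries fewer cells of a type and less RNA per cell cannot be told apart. The part that tubule RNA and the amount of RNA played in the results was not tested beyond the values given without these mice and under other scalings.

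**Figure D1:**
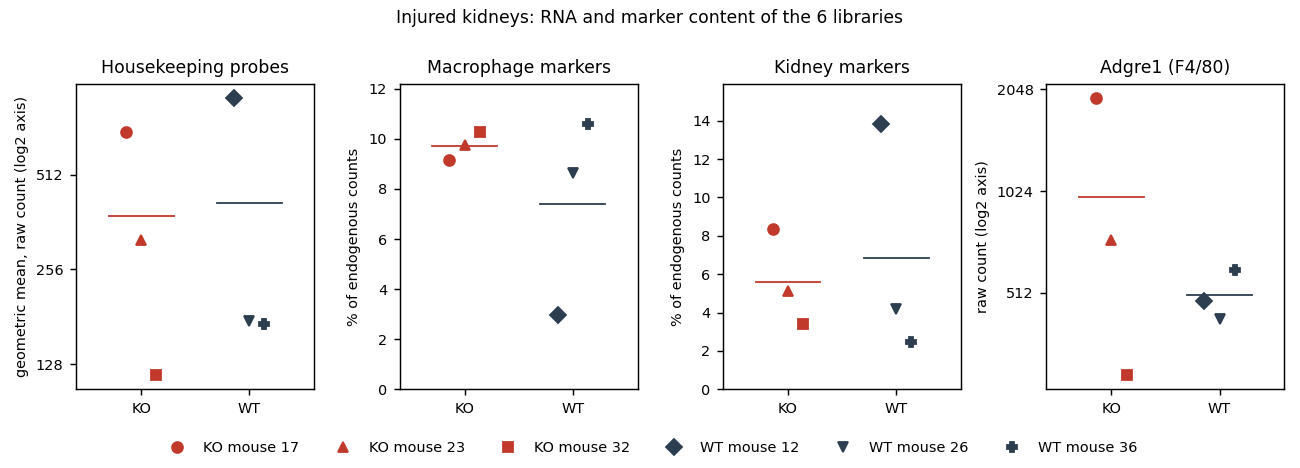
RNA and marker content of the 6 injured libraries, KO left of WT, 1 symbol per mouse, with the mean of each group as a line. The panels show the geometric mean of the raw housekeeping counts, the macrophage and kidney marker lists as a percent of endogenous counts, and the raw count of Adgre1, and WT mouse 12 has the lowest macrophage share (2.98%) and the highest kidney share (13.8%).

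No gene passed the test between injured KO and injured WT kidneys. A gene was tested where its raw count reached 53.5 (2 SD above the average negative control) in at least 3 of the 6 libraries, which kept 675 of the 734 endogenous genes. Of these 675, 0 were called at an adjusted p under 0.05 (0%, edgeR's quasi-likelihood test with Benjamini-Hochberg adjustment, smallest adjusted p = 0.998), and 5 had an unadjusted p under 0.05 (0.741%). DESeq2 also called 0, with 11 genes at an unadjusted p under 0.05. The typical fold change was imprecise, with a median standard error (SE) of 0.46 on the log2 scale and a median 95% interval of 1.04 to either side. The interval lay within a 2-fold difference either way for 124 of the 675 genes. For the other genes it reached past a 2-fold difference, so that a difference of that size was not resolved with 3 mice per group.

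A count of genes whose groups did not overlap gives another view of the same values. In normalised counts, which are raw counts scaled to a common library size with TMM factors, all 3 KO libraries lay above all 3 WT libraries for 19 genes (2.81% of those tested) and below them for 12 (1.78%). Without WT mouse 12 the counts were 110 above (16.3%) and 109 below (16.1%), over 3 KO and 2 WT libraries. Without KO mouse 17 and WT mouse 12 together, with 2 mice per group, 249 of the 675 genes did not overlap, 115 of them above. Fewer libraries make such separation easier, so these counts cannot be set against those of 6 libraries as a larger difference. The log2 fold change, KO minus WT, was positive for 213 of the 675 genes (31.6%), with a median of -0.16. That median depends on the scaling: it was 0.00 when housekeeping probes set the scale, 0.02 with the positive controls and -0.60 when the macrophage genes Adgre1 and Csf1r did.

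The 12 genes with a positive log2 fold change and the smallest unadjusted p were Arg1, Fn1, Cxcl3, Il1a, Cd84, Ccl7, Adam8, Il1rn, Cybb, Fcgr3, Cxcl2 and Apoe, between 1.84 and 0.68 on the log2 scale. They are genes of injury and repair macrophages, of interleukin-1 and of chemokines, and none passed (edgeR adjusted p = 0.998 for each). Because they were ranked on this same comparison, their sizes and counts describe it and are not a second test of it. Of the 12, 11 had their highest injured value in KO mouse 17 and 8 their lowest in WT mouse 12, while 8 had groups that did not overlap. The count of genes without overlap rests in part on low counts in KO mouse 32, among them those of Arg1, Il1a and Adam8. All 12 kept a positive log2 fold change in the 6 fits that left out 1 mouse and under 6 scalings.

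Arg1 and Fn1 had the largest positive log2 fold changes. Arg1 encodes arginase 1, which competes with nitric oxide synthase for arginine and marks alternatively activated mouse macrophages. Its normalised count was 654, 273 and 139.7 in the injured kidneys of KO mice 17, 23 and 32, against 54.2, 119 and 128 in those of WT mice 12, 26 and 36. Every KO value lay above every WT value, but KO mouse 32 was close to WT mouse 36. The log2 fold change was 1.84 ± 0.59 (SE, n = 3 mice per group), with a 95% interval from 0.52 to 3.16 and an edgeR unadjusted p of 0.0117 (adjusted p = 0.998). It was 1.54 without WT mouse 12, 1.05 without KO mouse 17 and 0.76 without both. The raw counts were 1392, 295 and 71 in KO and 82, 88 and 98 in WT libraries, so that KO mouse 32 led the WT mice only after scaling. The mean negative control of KO mouse 32 was 34.9, and scaling raises such background in a library with little RNA. The lead of that mouse in Arg1 is therefore uncertain.

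Fn1 encodes fibronectin, a matrix protein that monocytes and repair macrophages also make. Its normalised count was 1128, 485 and 226 in KO and 186, 202 and 210.2 in WT libraries. The WT mice lay close together and KO mice 17 and 23 well above them, with KO mouse 32 just above. The log2 fold change was 1.62 ± 0.56 (95% interval from 0.36 to 2.89, edgeR unadjusted p = 0.0173), and 1.58 without WT mouse 12 against 0.84 without KO mouse 17.

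**Figure D2:**
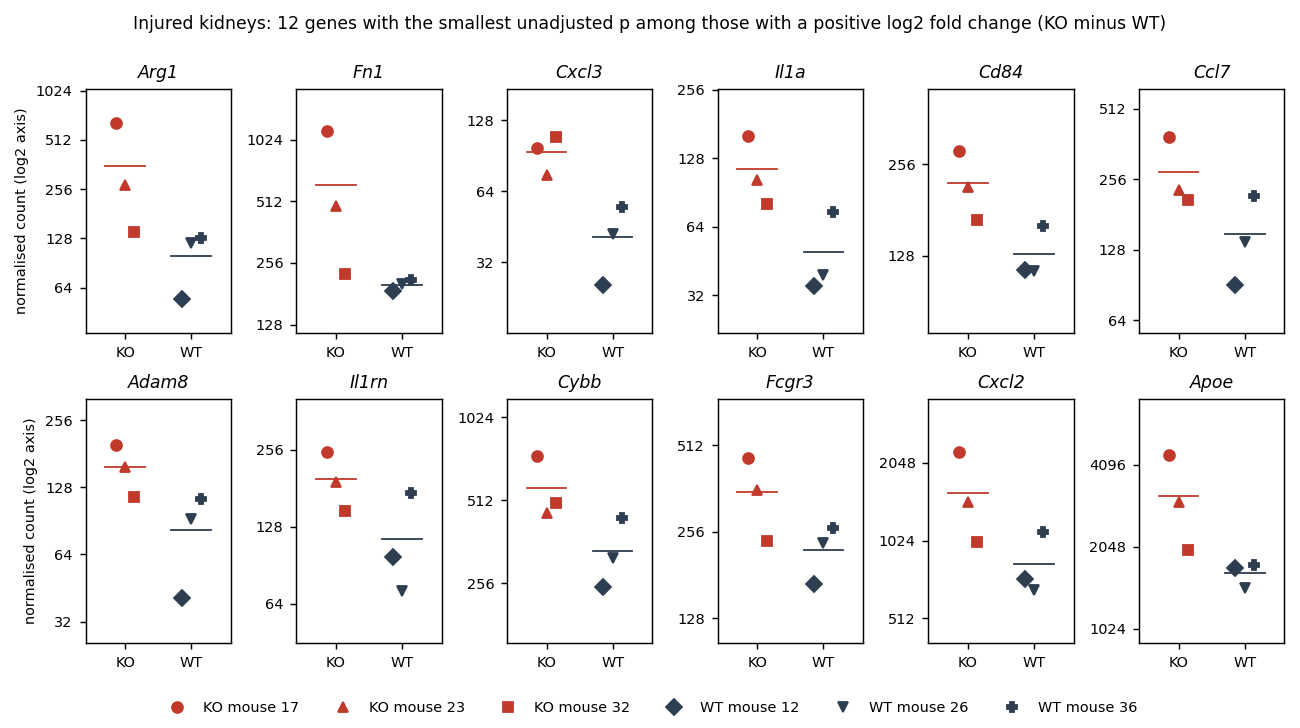
Normalised counts of the 12 genes with a positive log2 fold change and the smallest unadjusted p in the 6 injured libraries, KO left of WT, on a log2 axis, with 1 symbol per mouse and the group mean as a line. KO mouse 17 is the highest library for 11 of the 12 genes, and the groups of 8 genes do not overlap.

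Both interleukin-1 genes among the leading ones, the cytokine and its antagonist, pointed the same way. Il1a encodes interleukin-1 alpha, a cytokine that is also released by dying cells and starts sterile inflammation. It had 161, 103 and 80.7 normalised counts in KO and 35.0, 39.3 and 74.4 in WT libraries, without overlap, and KO mouse 32 lay near WT mouse 36. The log2 fold change was 1.23 ± 0.46 (95% interval from 0.18 to 2.27, edgeR unadjusted p = 0.0262). Il1rn encodes the interleukin-1 receptor antagonist, which blocks the receptor. It had 252, 191 and 148 normalised counts in KO and 97.8, 71.9 and 174 in WT libraries, with WT mouse 36 above KO mouse 32, and a log2 fold change of 0.79 ± 0.41. Il1b, which encodes interleukin-1 beta, stood at 597, 500.3 and 531 in KO and 254, 388 and 521 in WT libraries and at 0.49 ± 0.40 on the log2 scale. For Il1b KO mouse 23 lay below WT mouse 36, so the groups overlapped.

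Raw Il1a counts were low. They were 343, 111 and 41 in KO and 53, 29 and 57 in WT libraries, where single negative controls reached 45 to 55. KO mouse 32 had fewer raw Il1a counts than WT mice 12 and 36, and with the negative control mean subtracted the log2 fold change was 2.01.

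Cxcl3 and Cxcl2, ligands of the neutrophil receptor Cxcr2, were among the leading genes. Cxcl3 had 97.7, 74.9 and 108 normalised counts in KO and 25.8, 42.1 and 54.8 in WT libraries. All KO values were above all WT values. Its log2 fold change was 1.20 ± 0.44 (95% interval from 0.21 to 2.20, edgeR unadjusted p = 0.0232) and ranged from 0.94 to 1.59 over the fits without 1 mouse. Its raw counts were 208, 81 and 55 in KO and 39, 31 and 42 in WT libraries, so the WT values lay among the negative controls and the fold change is not a precise one. Cxcl3 reached the minimum of 53.5 in the 3 KO libraries and in none of the WT libraries, so the filter that let it into the test already set its groups apart, and its separation and p are given as a description. Cxcl2 was far more abundant, with 2254, 1440 and 1009 normalised counts in KO and 727, 658 and 1103 in WT libraries. WT mouse 36 lay above KO mouse 32, and the log2 fold change was 0.92 ± 0.52. Cxcl1, another ligand of that receptor, stood at 0.53.

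The C-C chemokine Ccl7, which attracts monocytes through Ccr2, had 388, 230.3 and 209 normalised counts in KO and 90.6, 138 and 218 in WT libraries, a log2 fold change of 0.90 ± 0.42. WT mouse 36 again reached the KO range. Ccl9 was at 1132, 734 and 391 in KO and 266, 362 and 627 in WT libraries (0.85 ± 0.53), and Ccl2, the main ligand of Ccr2, differed by 0.62. Of the 19 C-C chemokine genes tested, 0 were called, 10 had a positive log2 fold change and the median was 0.02. Of the 13 C-X-C and related chemokine genes, 0 were called, 9 were positive and the median was 0.10, beside -0.16 for all genes tested. The lowest of these, Cxcl12, the ligand of Cxcr4 made by stromal cells, stood at -0.81.

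The remaining leading genes encode surface and enzyme proteins of phagocytes. Cd84, a receptor of the SLAM family, had 283, 215 and 167 normalised counts in KO and 114, 114 and 161 in WT libraries, with no overlap and a log2 fold change of 0.78 ± 0.34 (95% interval from 0.02 to 1.55, edgeR unadjusted p = 0.0457). Adam8, a membrane metalloprotease of leukocytes, had 199, 158 and 116 in KO and 41.0, 92.2 and 114 in WT libraries. KO mouse 32 lay just above WT mouse 36, and the log2 fold change was 0.95 ± 0.45. The raw Adam8 count of KO mouse 32 was low, beside a mean negative control of 34.9 in that library. Because scaling raises such background in a library with little RNA, the lead of KO mouse 32 in Adam8 is uncertain. Cybb, the catalytic subunit of the phagocyte NADPH oxidase, had 743, 462 and 502 in KO and 249, 316 and 443 in WT libraries (0.76 ± 0.40). KO values were again all above WT values.

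Apoe, a lipid carrier made by macrophages, was the most abundant of the 12, with 4459, 2979 and 1991 normalised counts in KO and 1714, 1449 and 1748 in WT libraries. The groups did not overlap, and the log2 fold change was 0.94 ± 0.57, or 0.98 without WT mouse 12 and 0.60 without KO mouse 17. Fcgr3, an activating receptor for the Fc part of IgG, had 463, 359 and 238 in KO and 168, 235 and 264 in WT libraries. KO mouse 32 lay below WT mouse 36, and the log2 fold change was 0.68 ± 0.37.

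The 12 genes with a negative log2 fold change and the smallest unadjusted p were Cbr1, Egf, Hist1h1c, Angpt2, Enpp2, Prdx1, Enpep, Ifit1bl1, Mif, Ccl25, Hmgb1 and Ndufa7. For 10 of them the highest injured library was that of WT mouse 12, and 3 had groups that did not overlap. WT mouse 12 was the highest library for 257 of all 675 genes and the lowest for 163. Several of the 12 are genes that kidney epithelium expresses, and the kidney marker share was 13.8% in WT mouse 12 against 2.48% to 8.34% in the other 5 injured libraries.

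Egf, a growth factor made by distal tubule cells, had 1922, 3077 and 2656 normalised counts in KO and 26892, 3152 and 995 in WT libraries. WT mouse 12 was far above all others and WT mouse 36 below all others. The log2 fold change was -2.02 ± 1.14, and 0.30 without WT mouse 12. Enpep, an aminopeptidase of the proximal tubule brush border, had 192, 167 and 171 in KO and 704, 166 and 132 in WT libraries, with a log2 fold change of -0.92 ± 0.60 that was 0.25 without WT mouse 12. Cbr1, a carbonyl reductase, had 187, 183 and 118 in KO and 857, 207 and 153 in WT libraries, at -1.32 ± 0.63, and at -0.13 without WT mouse 12. The mitochondrial complex I subunit gene Ndufa7, at -1.09 ± 0.77, and the linker histone gene Hist1h1c, at -1.07 ± 0.62, stood at 0.29 and -0.14 without that mouse. These 5 differences thus rested on 1 WT library.

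Klk1 and Havcr1, epithelial genes outside the leading ones, showed how far the tubule signal varied. Klk1, a tubular kallikrein and one of the most abundant genes, had 23118, 8163 and 3374 normalised counts in KO and 34725, 4296 and 2885 in WT libraries. KO mouse 17 and WT mouse 12 were the highest of their groups, and the log2 fold change of -0.27 ± 1.16 was 1.69 without WT mouse 12. Havcr1, the tubule injury marker known as Kim-1, had 292, 311 and 138 in KO and 118, 195 and 261 in WT libraries, at 0.38 ± 0.43.

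Angpt2, Ifit1bl1 and Prdx1 had negative log2 fold changes with and without WT mouse 12, which were smaller in size without KO mouse 17. Angpt2, a modulator of the endothelial receptor Tek, had 132, 291 and 604 normalised counts in KO and 753, 705 and 513 in WT libraries. KO mouse 32 lay above WT mouse 36, and the log2 fold change was -0.95 ± 0.55, or -0.85 without WT mouse 12 and -0.56 without KO mouse 17. Ifit1bl1, a member of the interferon-induced Ifit family, had 79.8, 181 and 199 in KO and 135, 290.3 and 308 in WT libraries. KO mice 23 and 32 lay above WT mouse 12, and the log2 fold change of -0.68 ± 0.46 was -0.98 without that mouse, -0.36 without KO mouse 17 and -0.38 without WT mouse 36. Prdx1, a peroxiredoxin, had 155, 212 and 285 in KO and 378, 299.8 and 294 in WT libraries. All KO values were below all WT values by a small margin, at -0.58 ± 0.35, or -0.46 without WT mouse 12 and -0.39 without KO mouse 17.

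Mif and Hmgb1, which encode released mediators of inflammation, also had groups that did not overlap. Mif, the macrophage migration inhibitory factor, had 765, 1019 and 995 normalised counts in KO and 2503, 1206 and 1051 in WT libraries (-0.78 ± 0.53). Hmgb1, a chromatin protein that acts as a danger signal outside the cell, had 381, 455 and 395 in KO and 832, 481 and 503 in WT libraries (-0.56 ± 0.39). Without WT mouse 12 the log2 fold changes were -0.28 for Mif and -0.26 for Hmgb1.

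**Figure D3:**
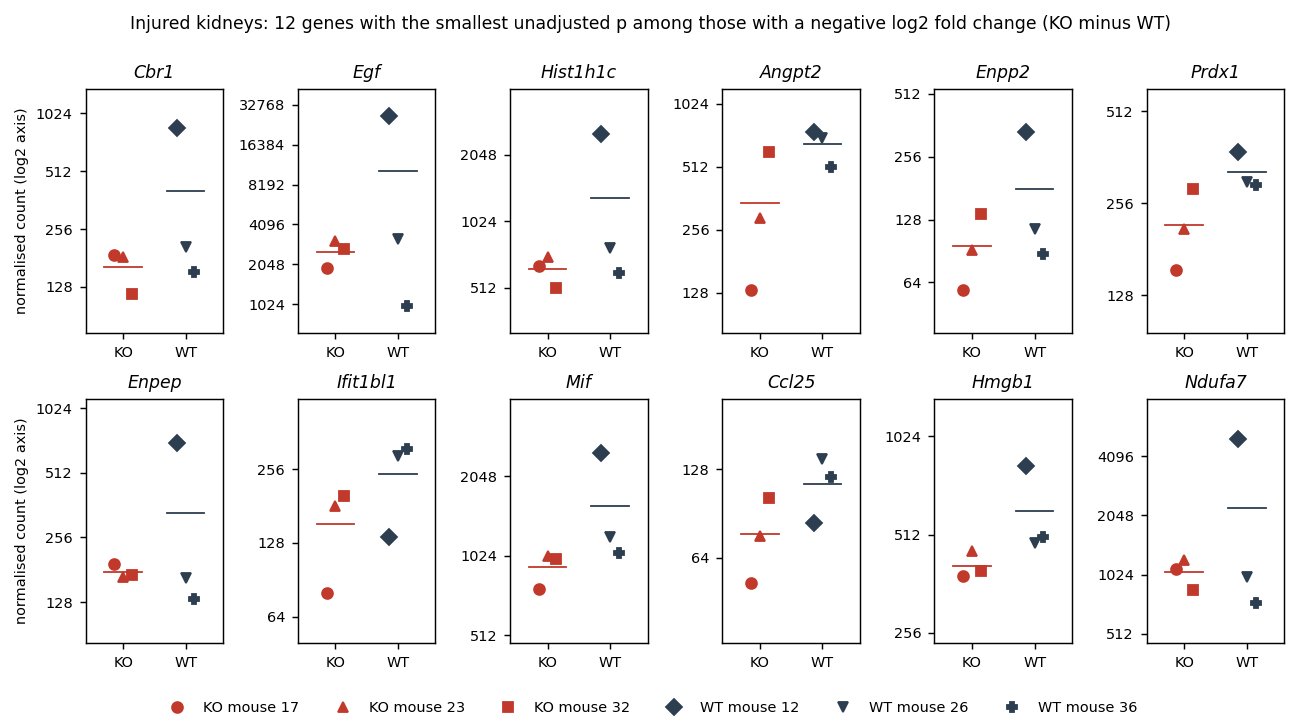
Normalised counts of the 12 genes with a negative log2 fold change and the smallest unadjusted p in the 6 injured libraries, KO left of WT, on a log2 axis, with 1 symbol per mouse and the group mean as a line. WT mouse 12 is the highest library for 10 of the 12 genes.

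Beyond these leading genes, the groups did not overlap for 20 others, which are named here because of that. Above in KO were Rgl1, Csf2ra, Tnfrsf11a, Dusp2, Alox5ap, Il4ra, Ccrl2, Arhgef6, Rapgef4, H2-Aa and Cd74, with log2 fold changes from 0.24 to 0.50. They include Csf2ra, the receptor subunit for the growth factor GM-CSF, at 175, 189 and 175 normalised counts in KO and 83.3, 151 and 155 in WT libraries, and Il4ra, the receptor subunit for interleukins 4 and 13, at 327, 326 and 285 in KO and 276, 202 and 279 in WT libraries. Below in KO were Alcam, Crem, H2-T23, Des, B4galt4, Cd40, Twistnb, H2-DMb1 and Ncor1, with log2 fold changes from -0.44 to -0.21. Their SEs ran from 0.29 to 0.64, about as large as the differences. Under positive control scaling 8 genes in all did not overlap, in place of 31.

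Gene groups were described by counts and medians, with no test of the group. No list had a called member, where 0% of all genes were called. Relative to the median of -0.16 for all genes tested, the highest list medians were those of complement (0.60 over 7 genes), macrophage markers (0.47 over 24) and phagocytosis (0.40 over 15), lists that share members. Without WT mouse 12 they stood at 0.34, 0.30 and 0.23 beside 0.00 for all genes, and without KO mouse 17 and WT mouse 12 together at 0.089, 0.072 and 0.11 beside 0.00. Relative to Adgre1 and Csf1r they stood at 0.19, 0.04 and -0.01 beside -0.60. Adgre1 and Csf1r are themselves on the macrophage marker list, so the scale in part sets the median of that list. The macrophage marker share was lowest in WT mouse 12, as given above.

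**Figure D4:**
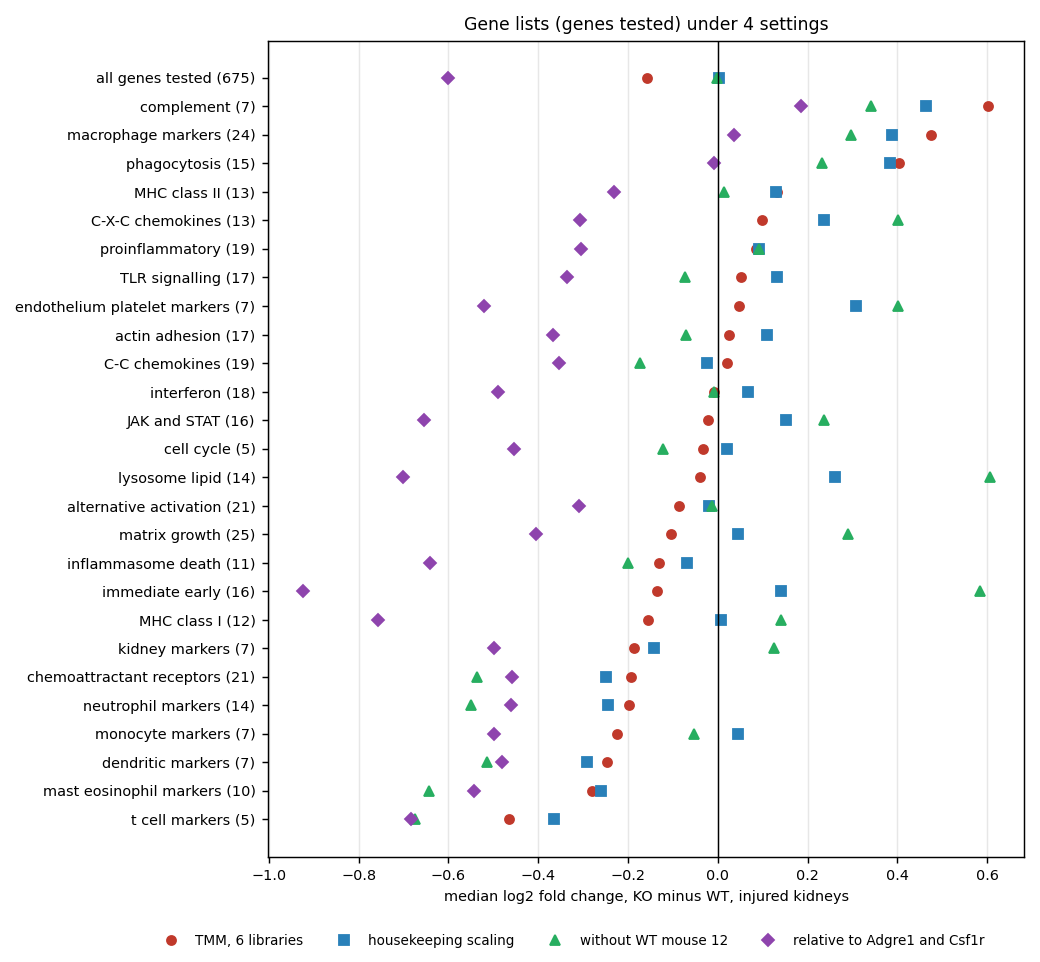
Median log2 fold change, KO minus WT in injured kidneys, of each gene list with at least 5 genes tested (their number in brackets) under 4 settings. Complement, macrophage marker and phagocytosis lists have the highest medians in the 6 libraries (0.60, 0.47 and 0.40). They stand at 0.19, 0.04 and -0.01 when Adgre1 and Csf1r, which are themselves on the macrophage marker list, set the scale.

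Of the 7 complement genes tested, 6 had a positive log2 fold change. The C1q chains, with which macrophages start the classical pathway, stood at 0.52 (C1qa), 0.60 (C1qb) and 0.64 (C1qc). Itgam, a chain of complement receptor 3 and a common marker of myeloid cells, had 677, 422 and 281 normalised counts in KO and 182, 258 and 409 in WT libraries, at 0.71 ± 0.46. C5ar1 and C3ar1, the receptors of the anaphylatoxins, stood at 0.62 ± 0.47 and 0.59 ± 0.45. In each of these 3 genes WT mouse 12 was the lowest library and WT mouse 36 lay above KO mouse 32, so the groups overlapped. Without WT mouse 12 the log2 fold changes were 0.47 for Itgam, 0.29 for C5ar1 and 0.33 for C3ar1, and without KO mouse 17 they were 0.32, 0.40 and 0.33. Without both mice they were 0.07, 0.05 and 0.05.

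Phagocytosis, in which Aif1 takes part, showed 12 of 15 genes with a positive log2 fold change, beside 213 of all 675 genes. Relative to Adgre1 and Csf1r 7 of the 15 were positive, beside 49 of 675, and in the contralateral kidneys 7 of the 15, beside 320 of 675. Without KO mouse 17 and WT mouse 12 together Fcgr3 stood at 0.26 and Clec7a at 0.03. Besides Fcgr3, the lysosomal glycoprotein gene Cd68 had 841, 526 and 283 normalised counts in KO and 221, 297 and 433 in WT libraries, at 0.80 ± 0.48. The inhibitory Fc receptor gene Fcgr2b stood at 0.69, the high affinity receptor gene Fcgr1 at 0.51, the beta-glucan receptor gene Clec7a at 0.47 ± 0.36 and the kinase gene Syk at 0.40. Mertk, the receptor kinase for apoptotic cells, stood at -0.25, and Timd4, the phosphatidylserine receptor of resident macrophages, at -0.16. KO and WT libraries overlapped in Cd68, with WT mouse 36 above KO mouse 32.

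Genes of the actin skeleton and of adhesion, the group closest to the known role of the Aif1 protein, gave no called gene. Of 17 tested, 10 had a positive log2 fold change, with a median of 0.02. Vav1, an exchange factor for small GTPases that steer the actin skeleton, had 189.7, 146 and 165 normalised counts in KO and 72.7, 129 and 153 in WT libraries, at 0.51 ± 0.37. KO mouse 23 lay below WT mouse 36. The integrin beta 2 gene Itgb2 stood at 0.30. Icam1, Itga5, Itgal and Fyn, which carry adhesion of leukocytes or its signals, stood between 0.01 and 0.06.

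The pro-inflammatory and the alternative activation genes each held members on both sides of 0. Of 19 pro-inflammatory genes 11 were positive, with a median of 0.08, and after Il1a and Il1rn the largest were Ptgs2, the inducible cyclooxygenase, at 0.57 and Il1b. Tnf stood at 0.35, Il6 at -0.03 and Nos2, the inducible nitric oxide synthase, at -0.18. Of 21 alternative activation genes 10 were positive, with a median of -0.09. Below Arg1 came Stab1 and the mannose receptor gene Mrc1, both at 0.59, Tgfb1 at 0.49 and Trem2 at 0.45, while Chil3 stood at -0.33, Ccl22 at -0.24 and Pparg at -0.46. Arg1 thus stood apart from the other genes of its list.

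MHC class II and interferon genes were close to the median of all genes or slightly above it. Of the 13 MHC class II and related genes 9 were positive, with a median of 0.13. The class II alpha chain gene H2-Aa had 2545, 2977 and 3215 normalised counts in KO and 2363, 2378 and 2309 in WT libraries, a tight WT group just below all KO values (0.31 ± 0.53). Cd74, the invariant chain, had 6193, 6376 and 7827 in KO and 4287, 5731 and 6129 in WT libraries (0.34 ± 0.64). Ctss, the protease that trims the invariant chain, stood at 0.77 ± 0.51, and Cd40, a costimulatory receptor, at -0.30 ± 0.31. Of the 18 interferon genes 9 were positive, with a median of -0.01, and Cxcl10, an interferon-induced chemokine, had 1196, 1002 and 769 in KO and 595, 731 and 872 in WT libraries (0.43 ± 0.44).

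Growth factor and matrix genes spanned the widest range, from Egf at -2.02 to Fn1 at 1.62, with 10 of 25 positive and a median of -0.10. Enpp2, which encodes the phospholipase autotaxin, stood at -0.94 ± 0.56, and at -0.11 without WT mouse 12. The toll-like receptor genes and their adaptors (median 0.05 over 17 genes) had the highest member in Nfkbiz, at 0.42. The receptors for chemoattractants had a median of -0.19, with 6 of 21 positive. Ccr2, the monocyte receptor, stood at 0.20 and Cx3cr1, the fractalkine receptor of resident macrophages, at 0.42.

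Most markers of other leukocytes were measured at low counts. Gata3 of the T cell list was not, with raw counts of 70 to 759 in KO and 112 to 1206 in WT libraries, and it counts towards the T cell share below. Gata2 of the mast cell and eosinophil list reached 625 in KO and 976 in WT libraries. Of the T cell markers, 5 of 7 passed the filter, and all 5 had a negative log2 fold change, with a median of -0.47. Raw counts of Cd28, a costimulatory receptor of T cells, were 116, 106 and 67 in KO and 92, 122 and 130 in WT libraries (-0.49 ± 0.50). The neutrophil list had 14 of 15 members above the filter, 2 of them positive, and a median of -0.20. The summed share of the neutrophil list was 0.197% to 1.05% of endogenous counts in KO and 0.161% to 1.02% in WT libraries, and that of the T cell list 0.169% to 0.360% in KO and 0.224% to 0.416% in WT libraries. No marker of these lists was at 0 in any library, but a count above 0 is not detection. The T cell marker Lat, below the filter, had raw counts of 15 to 20 in KO and 10 to 14 in WT libraries, under the mean negative control. Both shares were lowest in the 2 libraries with the most RNA, KO mouse 17 and WT mouse 12, and their part in the results was not tested. Counts near background make up a larger share of a library with fewer counts, so these shares do not measure leukocyte content alone.

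Scaling to the macrophage genes Adgre1 and Csf1r sets each count against those of the selected cell type and was chosen after the data had been seen. On that scale all 3 KO libraries lay above all 3 WT libraries for 7 genes (1.04%), which were Arg1, Cxcl3, Il1a, Ccl7, Adam8, Mpeg1 and C3ar1, and below them for 16 (2.37%). As a ratio to the geometric mean of those 2 genes, Arg1 was 0.761, 0.412 and 0.257 in KO and 0.172, 0.211 and 0.185 in WT libraries. Il1a was 0.188, 0.155 and 0.149 in KO and 0.111, 0.0697 and 0.108 in WT libraries. For Cxcl3 the ratios were 0.114, 0.113 and 0.199 in KO and 0.0819, 0.0745 and 0.0794 in WT libraries. Cxcl3 passed the filter through the KO libraries only and its WT counts lay among the negative controls, so its separation is again only a description. KO mouse 32 had the fewest counts of the 2 scaling genes, 292 of Adgre1 and 261 of Csf1r, and a mean negative control of 34.9. A count of background size thus gives a larger ratio there than in the other libraries. Its raw Il1a count lay among the negative controls. The separation of genes with low counts in that library, Il1a, Adam8 and Arg1 among them, is therefore uncertain. Fn1, by contrast, overlapped, with 1.31, 0.732 and 0.417 in KO and 0.593, 0.358 and 0.304 in WT libraries. The log2 fold changes on this scale were 1.34 for Arg1, 0.84 for Cxcl3, 0.77 for Il1a and 0.98 for Fn1, and no gene was called.

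The contralateral kidneys of the same 6 mice show whether such differences were also there without ischemia. Between contralateral KO and WT kidneys 0 of 675 genes were called (0%, edgeR), and 49 had an unadjusted p under 0.05 (7.26%). All 3 KO libraries lay above all 3 WT libraries for 47 genes (6.96%) and below them for 31 (4.59%). The 12 leading genes with a positive injured log2 fold change had a median contralateral log2 fold change of -0.05, with 6 of 12 positive. Arg1 stood at 0.51 ± 0.33 there and Fn1 at 0.25 ± 0.29, while Il1a stood at -0.17 ± 0.51, Cxcl2 at -0.56 ± 0.47 and Apoe at -0.40 ± 0.53. Of the 12 leading genes with a negative one, 10 were also negative in the contralateral kidneys, among them Egf at -1.75 ± 0.83, Enpep at -1.31 ± 0.54 and Cbr1 at -1.19 ± 0.54. Both kidneys of WT mouse 12 had the highest kidney marker shares, 13.8% in the injured and 19.0% in the contralateral one.

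**Figure D5:**
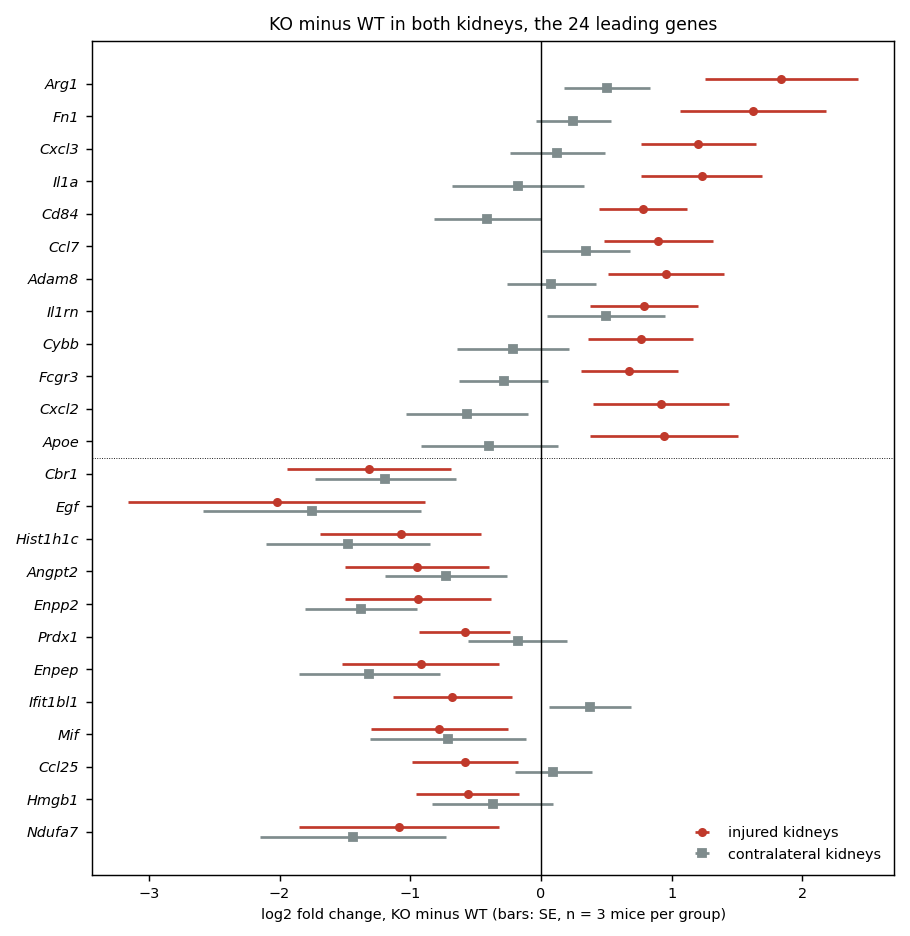
Log2 fold change, KO minus WT, with its SE (n = 3 mice per group) for the 12 leading genes of each direction, in injured (circles) and contralateral kidneys (squares) of the same mice. The 12 upper genes were ranked on the injured comparison and scatter about 0 in the contralateral kidneys (median -0.05), while 10 of the 12 lower genes are negative in both.

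Whether the KO minus WT difference was another one in injured than in contralateral kidneys was tested in all 12 libraries with the mouse as a block. No gene passed (0%, edgeR, 72 at an unadjusted p under 0.05, 10.7%). The differences of the responses, KO minus WT, were 1.57 ± 0.55 for Cxcl2, 1.50 ± 0.55 for Il1a, 1.44 ± 0.65 for Apoe, 1.27 ± 0.51 for Cd84, 1.16 ± 0.47 for Arg1 and 1.14 ± 0.44 for Fn1, on the log2 scale (adjusted p = 0.403 each). These are leading genes with a positive injured log2 fold change, and they share the injured libraries with the comparison that ranked them. Other genes had negative differences of responses of like size (adjusted p = 0.403 each). They include the leading gene Ifit1bl1 at -1.05 ± 0.37, and Ido2 at -1.45 ± 0.53 and Lamp3 at -1.41 ± 0.44, which are named here because of that. Without KO mouse 32 the same test called 321 of the 675 genes and without KO mouse 17 it called 1. The fits without 1 of the other mice each called 0. A count from a single fit with fewer mice is not read as a larger difference of responses, and its cause was not tested.

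Within each mouse, 8 of the 12 leading genes with a positive log2 fold change were higher in the injured than in the contralateral kidney of all 6 mice, WT mice included. For Arg1 the log2 ratio of injured over contralateral kidney was 2.83, 1.19 and 0.61 in KO and 0.14, 0.15 and 0.96 in WT mice, with WT mouse 36 above KO mouse 32. Contralateral raw counts were 16, 8 and 9 in KO and 24, 12 and 18 in WT mice for Il1a and 24, 36 and 22 in KO and 42, 29 and 33 in WT mice for Cxcl3. Such counts lie among or under the negative controls, so no ratio is given for these 2 genes. The difference of responses of Il1a above is as uncertain. Contralateral counts of Il1rn lay below those of Cxcl3 in all 6 mice, and those of Cd84 in KO mice 17 and 23. The difference of responses of Cd84 is therefore also uncertain. Il1a, Il1rn and Cd84 are among the 8 genes higher in all 6 mice, so that count rests in part on background values. Egf, Angpt2 and Enpp2 were lower in the injured kidney of all 6 mice.

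With 1 pair of libraries left out the count of called genes became 1. Without KO mouse 17 and WT mouse 12, the libraries with the most RNA, 2 mice per group remained, and edgeR called Kitl at 1.09 ± 0.26 on the log2 scale (adjusted p = 0.0257). Kitl encodes the ligand of the receptor Kit and is named here because of that call. In the 6 libraries its log2 fold change was -0.25, and without WT mouse 12 alone it was 1.41 ± 0.37 (adjusted p = 0.547).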

How the data were processed

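NanoString expression was measured in 12 libraries, and the 6 injured ones were compared. The deposited table holds raw counts: whole numbers per probe, with control probes and unequal totals (255274 to 904220 in injured libraries). Per the labels' protocols, RNA from a column kit was counted by the manufacturer's method. The sources used here do not name the panel, cartridges or counting software. All sample columns were used. Housekeeping probes were identified by name. Of 754 gene symbols, 744 matched a mouse RefSeq table and 9 a synonym. No probe sequence was used.

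Counts were scaled by TMM and fitted with edgeR 4.0.16 (R 4.3.3) on the 6 libraries, with genotype alone. P-values were adjusted over all 675 genes. The SE is the log2 fold change divided by the square root of its F value. Alternatives used DESeq2 1.42.0, limma 3.58.1, other scalings and filters, and fits without mice. The test was also run on simulated counts with known fold changes, drawn from the average profile of the libraries. Those counts lacked the differences in marker shares seen here. The outcome is not reported here and does not vouch for the test on these data. Each library is 1 mouse, so p-values measure the spread between 3 mice per group, and no batch is recorded in the labels.

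The comparison, gene lists and alternatives were chosen with earlier results of these data known. Named were Aif1, Adgre1, Csf1r, Klk1 and Egf, the 12 genes with the smallest unadjusted p in each direction, and members of the lists described, the 2 with the smallest p first. Names outside this are said to be so. Genes that the rule also names are in part not reported here. The numbers of KO and WT mice do not pair them. The difference of responses had each mouse's kidneys as a block, per the series' design.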

Additional observations from a re-analysis of the deposited data

How the results depend on the processing

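The count of 0 called genes between injured KO and WT kidneys held under the other alternatives, the 6 fits without 1 mouse included, and became 1 (Kitl) without KO mouse 17 and WT mouse 12 together. With the housekeeping level as a covariate, 57 genes had an unadjusted p under 0.05 and the smallest adjusted p was 0.150. In the 12 contralateral and injured libraries, limma with mouse as a random replicate block called 0 genes in the injured comparison (7 unadjusted). The contralateral comparison called 0 to 18 genes when 1 mouse was left out, 18 without WT mouse 26. The difference of responses called 0 to 321, 321 without KO mouse 32, and without the replicate block it called 0 (6 unadjusted). The 31 genes whose groups did not overlap became 8 under positive control scaling, 34 to 219 without 1 mouse, with 219 without WT mouse 12, 93 without WT mouse 36 and 77 without KO mouse 32, and 249 without KO mouse 17 and WT mouse 12. The counts without mice were added after seeing the data, and fewer libraries make such separation easier. Of 1287 fold changes of 65 named genes under alternatives, 1233 kept their direction and 54 had the opposite sign, all with adjusted p over the threshold, and the cause was not tested.

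Housekeeping scaling turned the sign for Klk1 (0.34), Tapbp (0.022) and Gata2 (0.00042). Positive control scaling did so for Top2a (0.089), Fasn (0.087) and Sele (0.041). Limma gave the opposite sign for Klk1 (0.19). Limma over 12 libraries with the mouse as a block did so for Klk1 (0.26). The housekeeping covariate did so for Klk1 (0.20). Without KO mouse 17 and WT mouse 12 the sign turned for Klk1 (0.68), Egf (0.46), Gata2 (0.44), Hif1a (0.30), Tapbp (0.26), Ndufa7 (0.25), Enpep (0.17), Enpp2 (0.11), Gata3 (0.044), Havcr1 (-0.0071), Csf1r (-0.011) and Adgre1 (-0.13). Relative to Adgre1 and Csf1r, a scaling added after seeing the data, it turned for Irf5 (-0.012), Cxcl10 (-0.041), Havcr1 (-0.047), Dusp2 (-0.091), Tlr2 (-0.10), Cd14 (-0.12), Il4ra (-0.23) and Cdkn1a (-0.38). Over the fits without 1 mouse, the log2 fold change ran from -0.59 to 0.14 for Aif1, -1.28 to 1.69 for Klk1, -2.30 to 0.30 for Egf, -1.07 to 0.25 for Enpep, -1.27 to 0.29 for Ndufa7, -0.65 to 0.55 for Tapbp, -0.82 to 0.60 for Hif1a, -0.53 to 0.047 for Top2a, -0.73 to 0.092 for Ctsg, -1.12 to 0.48 for Gata3, -0.60 to 0.30 for Ms4a1, -0.61 to 0.21 for Nkg7, -0.76 to 0.71 for Gata2 and -0.41 to 0.065 for Sele.

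Depth and background limit low genes. Counts under the threshold of 53.5 made up 47 to 169 of the 734 endogenous genes in an injured library, most in KO mouse 32, which had the least RNA. Scaling raises the normalised value of a probe near background in a library with little RNA. Subtraction of the mean negative control, with a floor of 1 count, gave 2.87 in place of 1.20 for Cxcl3 and 2.07 in place of 1.84 for Arg1. Genes whose groups did not overlap were not counted after that subtraction, so these fold changes do not show that the order of single libraries held.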

Other observations

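The endothelial and platelet genes of the panel were read differently with and without WT mouse 12. Over 6 libraries the 7 tested had a median log2 fold change of 0.05, KO minus WT, and without WT mouse 12 one of 0.40, beside 0.00 for all genes. Without that mouse 5 of the 7 were positive, and the adhesion genes Sele and Selp stood at -0.41 and -0.40. The genes described here were picked after their values were seen. Tek, the endothelial receptor for angiopoietins, had 488, 402 and 281 normalised counts in injured kidneys of KO mice 17, 23 and 32, against 699, 174 and 249 in those of WT mice 12, 26 and 36. Cdh5, the cadherin of endothelial junctions, had 402, 349 and 295 in KO and 516, 198 and 235 in WT libraries. Cd34, a sialomucin of endothelium and progenitor cells, had 800.0, 780.5 and 506 in KO and 1468, 361 and 424 in WT libraries. In each gene WT mouse 12 was the highest library and WT mice 26 and 36 lay below all KO mice. Without WT mouse 12 the log2 fold changes were 0.89 for Tek, 0.69 for Cdh5 and 0.83 for Cd34 (edgeR adjusted p = 0.547 each), and in the contralateral kidneys of all 6 mice they were -0.47, -0.31 and -0.59.

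Of the immediate early genes, which cells switch on soon after a stimulus, the 16 tested had a median of -0.14. Their median was 0.58 without WT mouse 12, -0.48 without KO mouse 17 and 0.12 without both. Jun, a subunit of the AP-1 transcription factor, had 6195, 3085 and 2121 normalised counts in KO and 9597, 2199 and 1860 in WT libraries, at -0.26 ± 0.83 (SE, n = 3 mice per group). Ctsd, which encodes the lysosomal protease cathepsin D, had 15971, 7106 and 1889 in KO and 21836, 2094 and 3232 in WT libraries, at -0.12 ± 1.11, and at 1.64 without WT mouse 12 (edgeR adjusted p = 0.547). In both genes the 2 libraries with the most RNA were the highest of their genotype, and the part of the amount of RNA was not tested.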
